A study of Mus musculus with 14 samples.

Results

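Transcripts of monocytes and of interstitial and monocyte-derived macrophages were followed through lung RNA sequencing of mice given a fungal allergen. They were chosen by symbol from the 54347 genes of the deposited tables: 9 genes, namely Ccr2, Ly6c2, C1qa, C1qb, C1qc, Spp1, Ms4a7, Gpnmb and Trem2. All 9 were counted in each of the 14 libraries and passed the filter on low counts in every comparison, and the smallest count of a member in any library was 136 (Ms4a7). All mice were C57BL/6 and received intranasal Alternaria alternata extract, 40 µl holding 2 mg at each of 4 daily doses, so no library shows the lung without allergen. The first experiment used bone marrow chimeras. Wild-type (WT) marrow went into irradiated recipients that were WT (n = 2) or had a gain-of-function (GOF) form of human JAK1 (n = 2). JAK1 is a kinase of cytokine receptors, and the donor marrow was WT in both groups. In the second, WT mice received resiniferatoxin (RTX), a TRPV1 agonist that destroys TRPV1-bearing sensory neurons, intrathecally at 25 ng per mouse on each of 2 days (n = 3), or 10 µl of saline vehicle (n = 2). In the third, WT mice received RTX subcutaneously in doses of 30, 70 and 100 µg/kg over 3 days (n = 3), or 100 µl of saline vehicle (n = 2). The sources used here do not give the cells that express the human JAK1 allele, the extent of donor engraftment or of neuron loss, or the age and sex of the mice. Nothing says whether replicates were separate animals, so each p-value covers only variation among libraries, which may be technical.

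Classical monocytes leave the bone marrow through CCR2, a receptor of the chemokines CCL2, CCL7 and CCL12, and carry Ly6C antigens on their surface. In inflamed lung they become macrophages, which, like the interstitial macrophages already resident around airways and vessels, make C1q, the recognition molecule of the classical complement pathway. Macrophages that take up lipid or debris can further switch on Trem2, Gpnmb and Spp1. In whole lung RNA, fewer cells of a type and less RNA per cell cannot be told apart.

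Ly6c2 has a close copy, Ly6c1, which endothelium also expresses, and this limits how its counts can be read. Both lie on chromosome 15 of GRCm38 on the minus strand, Ly6c2 at chr15:75108158-75111970 and Ly6c1 at chr15:75044018-75048830. Their coding sequences in the GENCODE M21 annotation are 396 bases long and 97.7% identical, and they differ at 9 bases. The first 120 coding bases, shown because they hold 6 of the 9 differing bases (capitals), read:
Ly6c2: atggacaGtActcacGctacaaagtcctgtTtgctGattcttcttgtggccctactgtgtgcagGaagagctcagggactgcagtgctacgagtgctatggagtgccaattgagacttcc
Ly6c1: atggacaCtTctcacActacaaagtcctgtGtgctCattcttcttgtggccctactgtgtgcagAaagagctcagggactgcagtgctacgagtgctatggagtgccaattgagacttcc
Of 792 runs of 31 bases in the Ly6c2 transcript, 390 (49.2%) also occurred in a Ly6c1 transcript, so reads from the shared runs cannot be assigned by sequence to 1 copy and Ly6c2 values are uncertain. The copies did not move together: the ratio of Ly6c1 to Ly6c2 in CPM (a count divided by its library's total count, times 1e+06) ran from 6.32 to 30.9 over the 14 libraries.

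The C1q subunit genes are neighbours on chromosome 4, all on the minus strand: C1qb at chr4:136880129-136886187, C1qc at chr4:136889804-136893065 and C1qa at chr4:136895917-136898803. The other members lie apart, Ccr2 at chr9:124101950-124113557, Spp1 at chr5:104435118-104441050, Ms4a7 at chr19:11321039-11336146, Gpnmb at chr6:49036546-49070929 and Trem2 at chr17:48346401-48354147. RefSeq windows of 250 bases upstream of a gene's start (GRCm38.p6) were at hand for 8 of the 9 members. They were searched on both strands for the core of the site of PU.1, a transcription factor of myeloid cells (GAGGAA, or TTCCTC on the other strand), which shares no overlapping run with the other motifs searched. It occurred upstream of 5 of the 8 members, C1qb, C1qc, Spp1, Trem2 and Ly6c2, and in 23.3% of 32851 such windows of all genes. The 8 members had 11 windows and a match in any counted, whereas the shares are of single windows. RefSeq and GENCODE starts can differ. Of the Ccr2 window 233 bases, and of the second windows of Ms4a7 and Spp1 all 250, lay inside the GENCODE gene. Of the members that varied together, Ms4a7 held no match in either of its 2 windows and C1qa had no window at hand. The windows of the other 4, each chosen because it holds the core, are shown with the core in capitals, written 5′ to 3′ on the gene's strand, and that of C1qc only as far as the start of its GENCODE exon. They are chr4:136886201-136886450 (C1qb, minus strand), chr4:136893066-136893164 (C1qc, minus strand), chr5:104434861-104435110 (Spp1, plus strand) and chr17:48346151-48346400 (Trem2, plus strand):
C1qb: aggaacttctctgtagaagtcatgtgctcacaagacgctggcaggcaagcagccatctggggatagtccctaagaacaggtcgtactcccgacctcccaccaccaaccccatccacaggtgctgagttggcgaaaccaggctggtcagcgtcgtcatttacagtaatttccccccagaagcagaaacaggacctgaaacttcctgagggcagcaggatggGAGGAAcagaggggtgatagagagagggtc
C1qc: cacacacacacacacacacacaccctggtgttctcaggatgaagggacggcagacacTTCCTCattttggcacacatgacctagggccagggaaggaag
Spp1: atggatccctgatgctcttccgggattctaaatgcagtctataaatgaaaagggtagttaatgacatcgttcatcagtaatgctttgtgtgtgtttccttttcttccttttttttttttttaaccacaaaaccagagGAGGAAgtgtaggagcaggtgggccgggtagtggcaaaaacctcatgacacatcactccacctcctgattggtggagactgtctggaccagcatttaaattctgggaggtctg
Trem2: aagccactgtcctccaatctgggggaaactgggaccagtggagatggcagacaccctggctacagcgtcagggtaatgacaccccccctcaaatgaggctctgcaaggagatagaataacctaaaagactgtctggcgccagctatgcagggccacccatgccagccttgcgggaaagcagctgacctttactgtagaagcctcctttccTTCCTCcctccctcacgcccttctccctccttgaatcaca
The AP-1 letters TGANTCA were found for 2 of the 8 members, Trem2 and, upstream of a second start, Ms4a7 (6.7% of all windows), and the E-box CACGTG for 0 of the 8 (6.0% of all windows). A match of letters is a description, not a site.

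Per kilobase of annotated exon, the C1q subunits and Spp1 were the most abundant members in all 6 groups and Ms4a7 the least. In subcutaneous vehicle lungs, for example, C1qb stood at 141 ± 34.9 CPM per kb (SD, n = 2), C1qa at 138 ± 31.5, Spp1 at 96.3 ± 14.7, C1qc at 58.9 ± 11.5, Ccr2 at 24.9 ± 4.73, Ly6c2 at 8.45 ± 0.534, Trem2 at 4.43 ± 1.28, Gpnmb at 3.12 ± 0.958 and Ms4a7 at 1.70 ± 0.357. The neighbours C1qb and C1qa, and Trem2 and Gpnmb, did not differ beyond their spread there. Spp1, which encodes the secreted adhesion protein osteopontin, held rank 1 in both chimera groups, at 206 ± 34.9 and 234 ± 28.0 CPM per kb (n = 2 each). It also held rank 1 with intrathecal RTX, but within the spread, at 126 ± 57.6 (n = 3) against 124 ± 14.1 for C1qa. In the other 3 groups it held rank 3. Gpnmb, a transmembrane glycoprotein of the endosomal and lysosomal system, held rank 5 or 6 in the chimeras and 6 to 8 elsewhere. Exon lengths here merge all annotated transcripts, and the sources used here do not give the lengths used in counting.

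Levels differed between experiments most for Gpnmb, which was between 102 and 212 CPM in the 4 chimera lungs and between 15.9 and 52.1 CPM in the other 10. Ms4a7 was between 14.5 and 21.4 CPM in the chimeras and between 6.17 and 14.2 CPM elsewhere. Spp1 overlapped between them, at 298 to 419 CPM in the chimeras and 127 to 312 CPM elsewhere. Irradiation and marrow transfer cannot be told apart from anything else in which the experiments differed, so these differences were not tested.

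**Figure D1:**
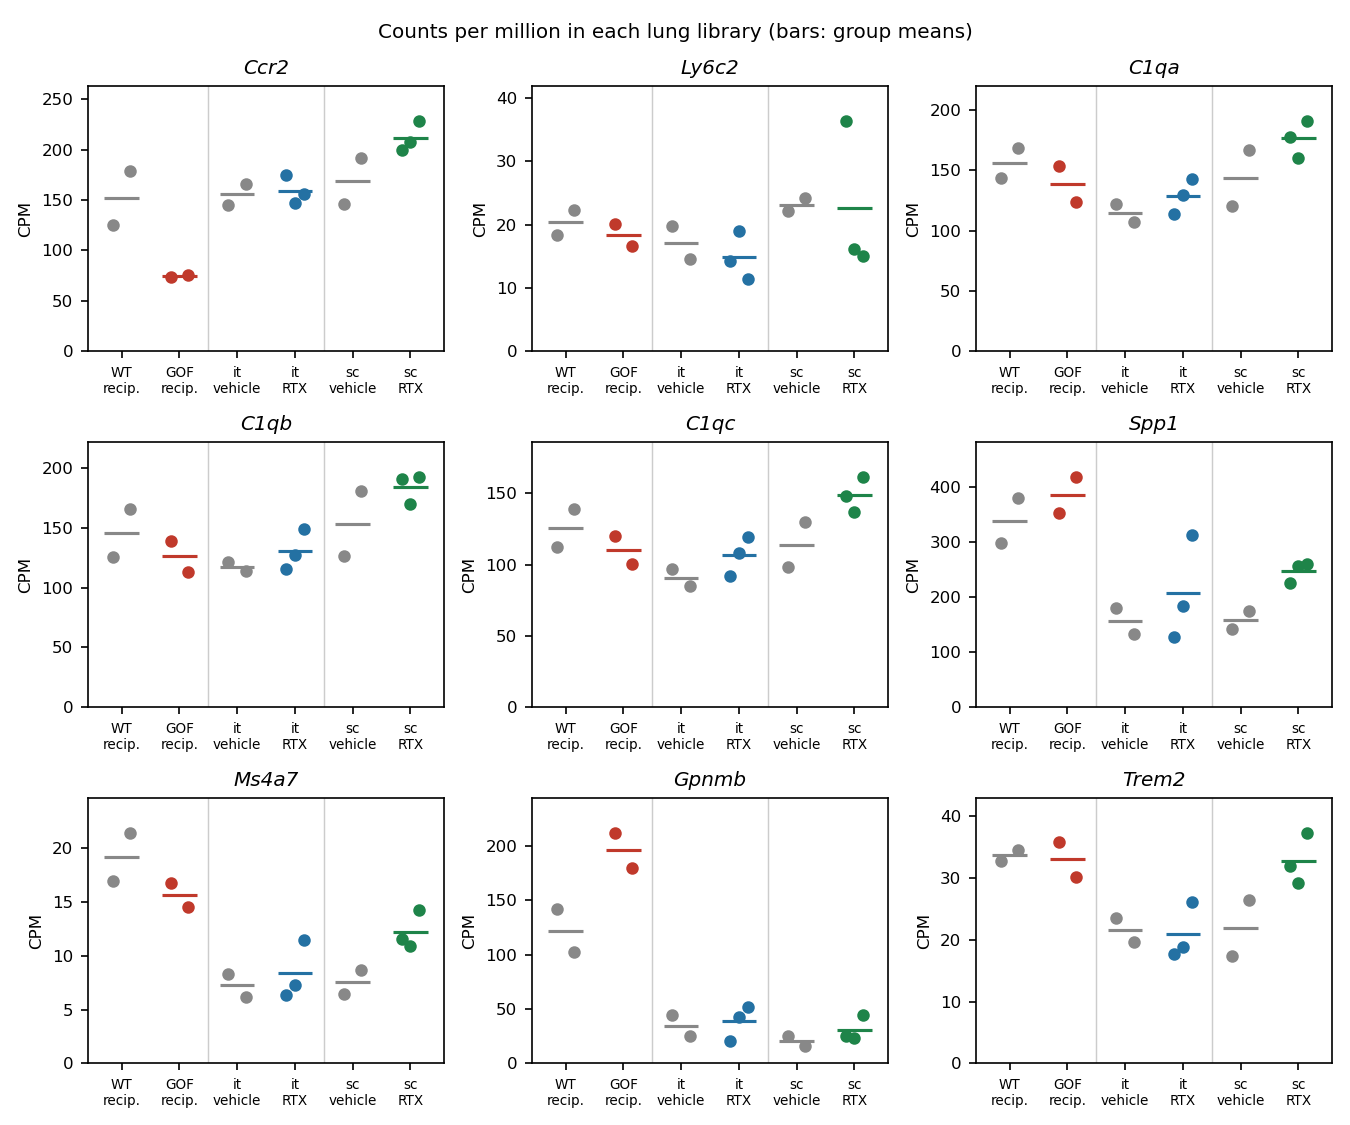
CPM (linear axis from 0) of the 9 genes in each of the 14 lung libraries; points are libraries, bars are group means, and vertical lines separate the 3 experiments. Ccr2 was lowest in both GOF recipients (73.9 and 75.3 CPM), and Gpnmb was higher in the 4 chimera lungs than in the other 10.

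Total counts were 18198872 to 24393000 per library, over 23448 to 24429 detected genes. Libraries fell into different states, and in some groups the replicates differed in state. The states were set from the transcripts Rps3a2 and Hmga2 with earlier results known, and no label explains them. State A was marked by Rps3a2 above 2 CPM, state B by Hmga2 above 2 CPM with Rps3a2 at or below that level, and the rest formed state C. WT recipient replicate 1 was in state A and the other 3 chimera libraries were in B. Both intrathecal vehicle libraries were in A and the 3 intrathecal RTX libraries in B, so there the state and RTX cannot be told apart. Subcutaneous vehicle replicates 1 and 2 were in B and C, and RTX replicates 1, 2 and 3 in C, A and A. Xist, an RNA made from the inactive X chromosome, measured 122 and 132 CPM with WT hosts, 62.9 and 73.2 CPM with GOF hosts and at most 5.11 CPM in the other 10 libraries. Its part in the chimera results was not tested.

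The chimeras ask whether JAK1 gain of function in recipient cells changes the lung that WT marrow repopulates. Ccr2 was lower in GOF recipients, the only member that passed the test (1 of 9). The WT recipients held 125 and 179 CPM and the GOF recipients 73.9 and 75.3 CPM. The groups did not overlap, and the GOF recipients were the 2 lowest of all 14 libraries. On the scale of TMM-scaled CPM, Ccr2 averaged 74.9 ± 0.862 (SD, n = 2) in GOF and 152 ± 40.1 (n = 2) in WT recipients, a log2 fold change of −1.02 ± 0.17 (SE), with an adjusted p of 0.0320 in edgeR's quasi-likelihood test. Over all 17298 genes tested, 0.717% were past this threshold (adjusted p under 0.05), 0.173% higher and 0.543% lower in GOF recipients. Without GOF replicate 1 the fold change of Ccr2 was −1.02 with an adjusted p of 0.286, and without GOF replicate 2 it was −1.04 with an adjusted p of 0.169. Within state B alone, that is without WT replicate 1, it was −1.27 with an adjusted p of 1.34e-10. With either WT or GOF down to 1 library, that library is assumed to vary like the others.

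Gpnmb had a log2 fold change in the other direction. The WT recipients stood at 142 and 102 CPM and the GOF recipients higher, at 212 and 180.3 CPM, with no overlap. The log2 fold change was 0.70 ± 0.16 with an adjusted p of 0.0912, which missed the threshold. The interval of 2 SE on either side ran from 0.38 to 1.02. Without WT replicate 1 it was 0.93 with an adjusted p of 0.000203. Leaving out WT replicate 2, GOF replicate 1 or GOF replicate 2 gave 0.50, 0.57 and 0.81, with adjusted p of 0.290, 0.459 and 0.115. On all 4 libraries DESeq2 gave an adjusted p of 0.00557 and limma voom 0.104.

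The C1q subunits, which assemble into 1 protein, gave near-equal values. C1qa was at 144 and 168 CPM in WT and 154 and 124 CPM in GOF recipients, and C1qb at 126 and 165 against 139 and 113 CPM. For C1qc the values were 112 and 139 CPM (WT) and 119.8 and 100.1 CPM (GOF). The groups overlapped for all 3 genes. Their log2 fold changes were −0.16 ± 0.15 (C1qa), −0.20 ± 0.16 (C1qb) and −0.18 ± 0.15 (C1qc), with adjusted p of 0.731, 0.7005 and 0.693.

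Ly6c2 overlapped between the groups, at 18.4 and 22.4 CPM (WT) and 20.1 and 16.6 CPM (GOF), and its log2 fold change was −0.14 ± 0.17 (adjusted p 0.803). Thus the pair of monocyte genes gave different values, though a difference between their fold changes was not tested. Trem2, the lipid-sensing receptor that signals through the adaptor encoded by Tyrobp, was at 32.8 and 34.5 against 35.9 and 30.2 CPM (−0.02 ± 0.14, adjusted p 0.975; interval of 2 SE from −0.29 to 0.25). Spp1 was at 298 and 379.5 against 354 and 419 CPM (0.20 ± 0.17, adjusted p 0.714). Ms4a7, a membrane protein with 4 spans found on monocyte-derived macrophages, was at 16.9 and 21.4 against 16.8 and 14.5 CPM (−0.29 ± 0.17, adjusted p 0.580), and its groups missed overlap only narrowly. In all, the groups did not overlap for 3 of the 9 members, against 42.6% of all genes tested. The median log2 fold change of the members was −0.16 and 2 of 9 were above 0, against a median of 0.000451 and 50.1% above 0 over all genes.

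Other genes of these cells and pathways were read from gene lists. Ccl8 was lower in GOF recipients, at 18.9 ± 1.92 against 38.0 ± 4.99 TMM-scaled CPM (0.499-fold, adjusted p 0.0181). It was the 1 gene that passed on a list of 4 chemokine genes taken as CCR2 ligands. These data do not show whether mouse CCL8 acts through CCR2. The median log2 fold change of 15 further monocyte genes was −0.30, and 12 of 15 were below 0, against 49.9% of all genes. At an unadjusted p under 0.05 edgeR gave 7 of these 15, against 11.6% of all genes. Summed CPM of the 15 was not lower and overlapped, at 7602 to 8117 in WT and 8038.5 to 8221 in GOF recipients. Of 10 genes of nonclassical monocytes, Spn (−0.71, adjusted p 0.0325) and Itgal (−0.73, adjusted p 0.0492), both also of lymphocytes, were lower. Of 20 further interstitial macrophage genes 0 passed, with a median of −0.06. Apoe, the most abundant of them, had a log2 fold change of 0.35 ± 0.18 (adjusted p 0.493). Summed CPM of the 20 was 2772 to 2839 in WT and higher, at 2872 to 2928, in GOF recipients. At an unadjusted p under 0.05 edgeR gave 6 of those 20, against 11.6% of all genes, and DESeq2 and voom called 0.

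Among partners of the macrophage members, Mmp12, a macrophage elastase on a list of 20 lipid and lysosome genes, was lower at 60.9 ± 1.87 against 154 ± 31.3 TMM-scaled CPM (−1.34 ± 0.15, adjusted p 0.00547), and the other 19 did not pass. The osteopontin receptor subunit Itga4, integrin alpha 4, which lymphocytes and eosinophils also carry, was lower (−0.78 ± 0.13, adjusted p 0.0228, 1 of 8 receptor genes). Of 11 genes of TREM2 signalling 0 passed, and all 11 were below 0 with a median of −0.44, against 49.9% of all genes below 0. Of 13 complement genes tested beside the C1q subunits, and of 8 genes of the CSF1 and CSF2 growth factors, receptors and myeloid factors, 0 passed by edgeR and by voom. At an unadjusted p under 0.05 edgeR gave 5 of 11, 2 of 13 and 4 of 8 of these lists, against 11.6% of all genes. DESeq2 called 0, 0 and 2 of them, where it called 305 of 17298 genes in all. Calls of Ccl8, Spn, Itgal, Itga4 and Mmp12 were lost when all 14 libraries were fitted together, with adjusted p from 0.0598 to 0.147. Leaving out GOF replicate 1 also ended those of Spn, Itgal and Itga4 (0.0612 to 0.170), GOF replicate 2 that of Spn (0.0537), and WT replicate 2 that of Itgal (0.0728).

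Markers of other cells stood apart between the same groups. Summed CPM of 11 alveolar macrophage genes was 1420 to 2096 in WT and 614 to 616 in GOF recipients, with Chil3 and Itgax lower (2 of 10 tested). Of those 10, 6 had log2 fold changes below 0 and 4 above, so the sum does not describe each gene. Sums for 8 lymphocyte genes were 127 to 129 against 67.5 to 86.0 (Cd4 and Cd3e lower), for 8 dendritic cell genes 138 to 146 against 99.9 to 102 (Itgae and Flt3 lower), and for 10 neutrophil genes 374 to 440 against 239.6 to 334 (Retnlg lower). For 7 genes of eosinophils, mast cells and basophils they were 15.1 to 33.8 against 10.4 to 11.2. Heart muscle genes went the other way, at 241 to 347 against 527 to 545 summed CPM, with 5 of 8 higher. So did the sums for 7 epithelial genes (18053 to 19880 against 22818 to 24080), 7 endothelial genes (2648 to 2951 against 3202 to 3343) and 8 heat shock genes (925 to 1363 against 1442 to 1646, with 8 of 8 log2 fold changes above 0), of which 0 passed in each list. Of the genes named, Itgax and Cd3e missed the threshold without either GOF library (adjusted p 0.117 to 0.495), Cd4 without GOF replicate 1 (0.0922) and Flt3 without GOF replicate 2 (0.0569). Their part in the result for Ccr2 was not tested.

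**Figure D2:**
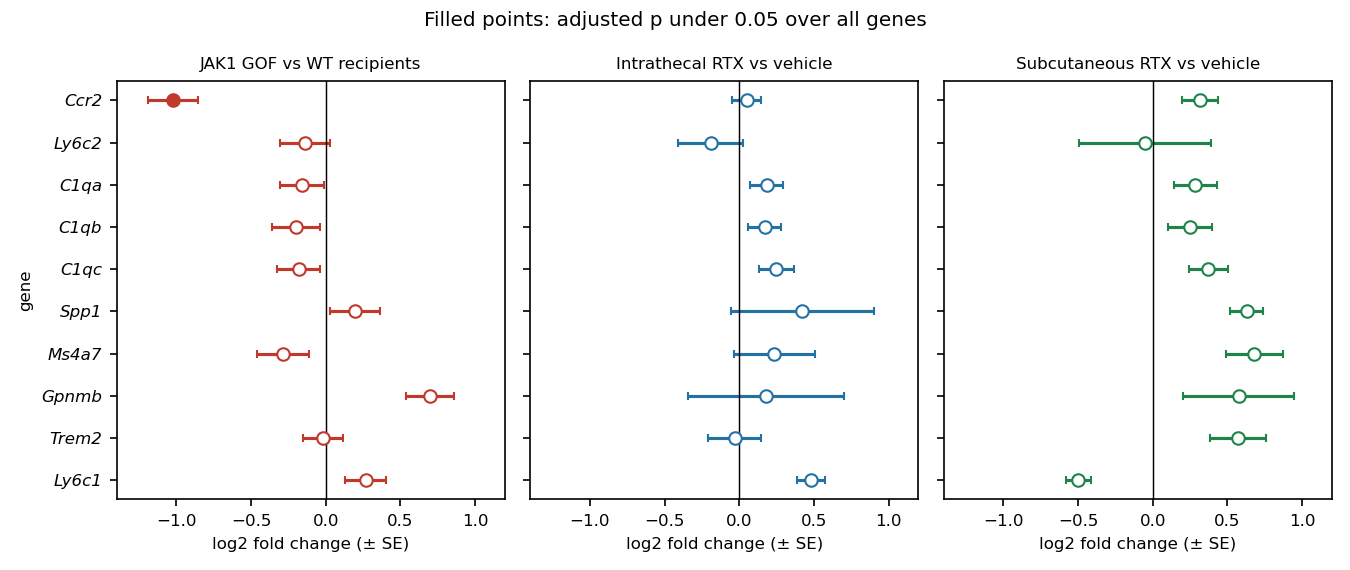
Log2 fold change (horizontal axis, bars ± SE) of the 9 genes and of Ly6c1, the copy of Ly6c2, in the 3 comparisons; filled points passed an adjusted p of 0.05 over all genes. Only Ccr2 in the chimeras is filled, at −1.02.

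Intrathecal RTX is used to ablate spinal visceral afferents. It gave 0 of 9 members past the threshold, in a comparison where 0.311% of 17360 genes passed (54 genes). By edgeR 0 of 9 had an unadjusted p under 0.05, against 11.5% of all genes, and DESeq2 and voom also called 0 of the 9. Groups overlapped for all 9 members, while 30.3% of all genes did not overlap. Of the members 7 of 9 were above 0, with a median of 0.18, against 51.5% of all genes and a median of 0.00755.

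Ccr2 was at 145 and 166 CPM with vehicle and at 174, 147 and 156 CPM with RTX. The groups overlapped, with a log2 fold change of 0.05 ± 0.10 (adjusted p 0.885), and the interval of 2 SE ran from −0.14 to 0.25. Ly6c2 was at 19.8 and 14.5 CPM against 14.3, 19.0 and 11.4 CPM (−0.19 ± 0.22, adjusted p 0.793).

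C1qa was at 122 and 107 CPM with vehicle and 114, 129 and 143 CPM with RTX, and C1qb at 122 and 114 against 116, 127 and 149 CPM. C1qc was at 96.9 and 84.7 CPM against 92.3, 108 and 119 CPM. In each case RTX replicate 3 was highest and RTX replicate 1 lay among the vehicle libraries. Log2 fold changes were 0.18 ± 0.11, 0.17 ± 0.11 and 0.25 ± 0.12, with adjusted p of 0.556, 0.597 and 0.454.

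Replicate 3 of RTX also stood highest for Spp1, which was at 181 and 133 CPM with vehicle and 127, 184 and 312 CPM with RTX (0.42 ± 0.48, adjusted p 0.803). Without that library the log2 fold change was −0.01. Ms4a7 was at 8.32 and 6.17 against 6.36, 7.30 and 11.5 CPM (0.24 ± 0.27), Gpnmb at 44.1 and 25.2 against 20.8, 42.9 and 52.1 CPM (0.18 ± 0.52), and Trem2 at 23.6 and 19.7 against 17.7, 18.9 and 26.1 CPM (−0.03 ± 0.18). Adjusted p were 0.793, 0.933 and 0.968. The interval of 2 SE for Gpnmb, from −0.87 to 1.23, leaves room for changes of either sign beyond 1.5-fold. By edgeR and by voom 0 genes passed among the CCR2 ligands, the monocyte, nonclassical monocyte and interstitial macrophage genes, and the partners of C1q, osteopontin and TREM2. At an unadjusted p under 0.05 edgeR gave 2 of 4 ligands, 5 of 15 monocyte genes and 6 of 20 interstitial macrophage genes, against 11.5% of all genes, and DESeq2 called 1, 1 and 3 of them, where it called 254 of 17360 genes in all. Among the partners edgeR gave 5 of 11 complement genes (8 of 11 below 0), 3 of 11 genes of TREM2 signalling, 0 of 8 osteopontin receptor genes and 2 of 20 lipid and lysosome genes, and DESeq2 called 2, 0, 0 and 0. For the 8 CSF1 and CSF2 genes edgeR gave 4 and DESeq2 called 1. Ccl8, the most abundant gene on the ligand list, had a log2 fold change of 0.01 (adjusted p 0.994). Heat shock genes moved with the same groups, Hspb1 and Hspe1 higher and Hspa1b and Dnajb1 lower with RTX (4 of 8 passed), and 10 neutrophil genes summed to 101 and 107 CPM with vehicle against 110 to 143 with RTX. Their part in the values of the 9 genes was not tested.

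Subcutaneous RTX is used to ablate vagal and spinal visceral afferents. It gave log2 fold changes above 0 for 8 of the 9 members, against 49.2% of all genes. Of the 9 members, however, 0 passed the adjusted threshold. By edgeR 0 of 17363 genes (0%) passed in this comparison, while 3153 genes had an unadjusted p under 0.05, DESeq2 called 761 genes and limma voom 0. At an unadjusted p under 0.05, 5 of 9 members were higher with RTX (Ccr2, C1qc, Spp1, Ms4a7 and Trem2), against 8.97% of all genes. For the same 5 members every RTX library lay above both vehicle libraries, against 20.5% of all genes. The median log2 fold change of the members was 0.37, against −0.00447 over all genes. These members vary together from library to library, so they are not separate observations.

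Spp1 showed the smallest p of the 9. It was at 142 and 176 CPM with vehicle and at 226, 256 and 261 CPM with RTX, and the groups did not overlap. The log2 fold change was 0.63 ± 0.11, with an interval of 2 SE from 0.40 to 0.85, and the adjusted p was 0.103. DESeq2 gave an adjusted p of 7.97e-05.

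Ms4a7 was at 6.45 and 8.70 CPM with vehicle and at 11.6, 10.9 and 14.2 CPM with RTX (0.68 ± 0.19, adjusted p 0.147; DESeq2 0.0492). Trem2 was at 17.4 and 26.4 CPM against 31.9, 29.3 and 37.4 CPM (0.57 ± 0.19, adjusted p 0.200). Gpnmb overlapped, at 24.7 and 15.9 CPM against 24.7, 22.9 and 44.3 CPM (0.58 ± 0.37, adjusted p 0.466), and RTX replicate 3 alone stood clearly above the vehicle libraries.

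The C1q subunits were less far apart. C1qa was at 120.3 and 167 CPM with vehicle and 178, 160.1 and 191 CPM with RTX, and C1qb at 127 and 180.4 against 190.4, 169.6 and 193 CPM. C1qc was at 98.1 and 129 CPM against 148, 137 and 162 CPM. Vehicle replicate 2 lay above RTX replicate 2 for C1qa and C1qb and below all RTX libraries for C1qc. Log2 fold changes were 0.29 ± 0.15, 0.25 ± 0.15 and 0.37 ± 0.13, with adjusted p of 0.346, 0.410 and 0.209.

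Of the monocyte genes, Ccr2 was at 146 and 191 CPM with vehicle and 199.6, 207 and 229 CPM with RTX (0.32 ± 0.12, adjusted p 0.243). Ly6c2 was at 22.1 and 24.2 CPM against 36.4, 16.2 and 15.1 CPM, so that RTX replicate 1 was the highest and RTX replicates 2 and 3 the lowest of the 5 (−0.05 ± 0.44, adjusted p 0.963). Its interval of 2 SE, from −0.93 to 0.83, is the widest of the 9 in this comparison.

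The outcome of this test depended on the vehicle libraries. Without vehicle replicate 2, 6 of the 9 members passed (Ccr2, C1qa, C1qb, C1qc, Spp1 and Trem2), with log2 fold changes of 0.53 to 0.90 and adjusted p of 0.0189 to 0.0440, and 871 genes passed in all. Without vehicle replicate 1, 0 of 9 passed and the log2 fold changes of C1qa and C1qb were 0.07 and 0.01. In both cases the lone vehicle library is assumed to vary like the RTX libraries. Vehicle replicate 2 and RTX replicate 1 shared state C, and side by side they held 191 and 199.6 CPM of Ccr2, 167 and 178 CPM of C1qa, 176 and 226 CPM of Spp1, 8.70 and 11.6 CPM of Ms4a7 and 26.4 and 31.9 CPM of Trem2. Vehicle replicate 1 and the RTX libraries in state A had no partner in the other group.

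**Figure D3:**
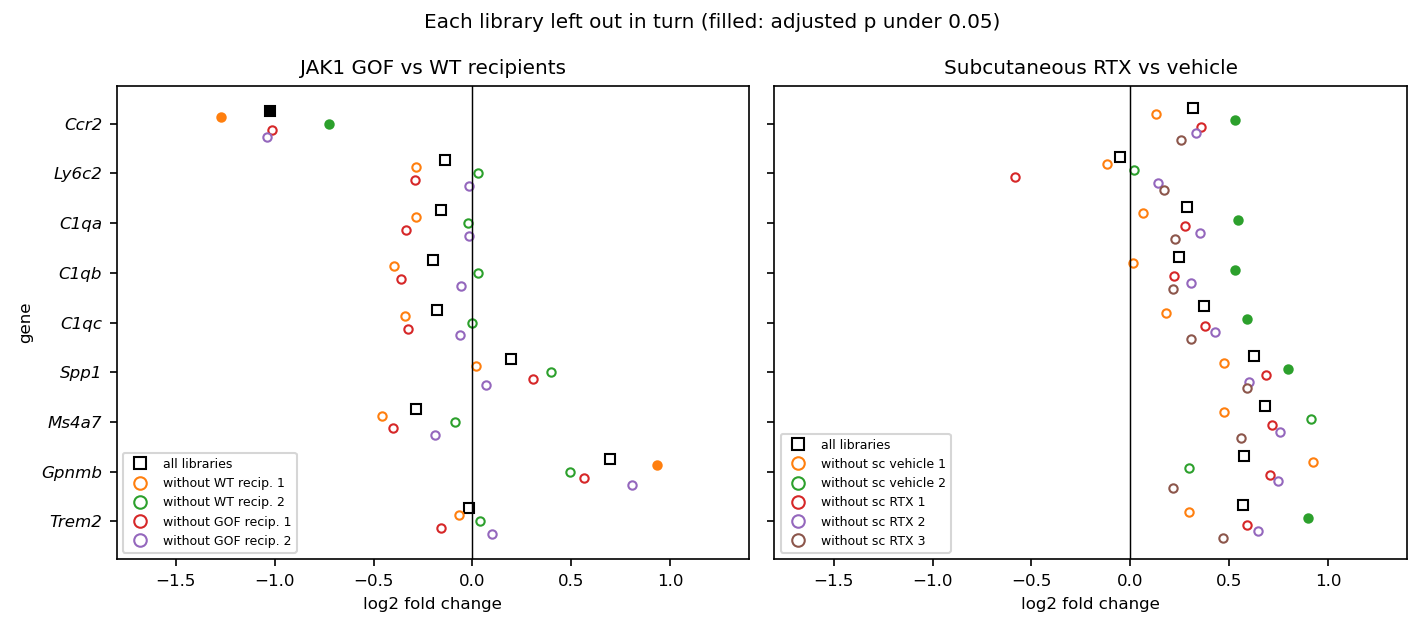
Log2 fold change (horizontal axis) of the 9 genes with all libraries (squares) and with each library left out in turn (circles), for the chimeras and for subcutaneous RTX; filled symbols passed an adjusted p of 0.05. Ccr2 in the chimeras is filled except without either GOF library, and 6 genes are filled in the subcutaneous comparison only without vehicle replicate 2.

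The lists around the members gave 0 calls with subcutaneous RTX by edgeR and by voom, while DESeq2 called 7 of 20 lipid and lysosome genes and 2 of 11 genes of TREM2 signalling, where it called 761 of 17363 genes in all. All 11 genes of TREM2 signalling were above 0, with a median of 0.32 and 3 of 11 at an unadjusted p under 0.05, and 17 of 20 lipid and lysosome genes were above 0, with a median of 0.34 and 12 of 20 at an unadjusted p under 0.05, against 18.2% of all genes. Ctsb, the cathepsin that was the most abundant of the latter, had a log2 fold change of 0.34 ± 0.11 (adjusted p 0.181). Further interstitial macrophage genes had a median of 0.14 (14 of 20 above 0), further monocyte genes 0.10 (9 of 15 above 0), CCR2 ligands 0.14 (3 of 4 above 0) and nonclassical monocyte genes −0.39 (4 of 10 above 0). At an unadjusted p under 0.05 edgeR gave 5 of 20, 3 of 15, 0 of 4 and 4 of 10 of these. Of 12 complement genes tested 6 were above 0, with a median of −0.025 and 4 at that p. Of 8 osteopontin receptor genes, and of 8 CSF1 and CSF2 genes, 6 each were above 0 and 4 each at that p. Lyz2, the lysozyme of monocytes, macrophages and alveolar type 2 cells and the most abundant monocyte gene, was at −0.59 ± 0.24 (adjusted p 0.263).

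Values of other cell types also differed among these libraries. Summed CPM of 11 alveolar macrophage genes was 3776 and 4355 with vehicle against 4772 to 5771 with RTX, and of 8 lymphocyte genes 97.4 and 118 against 163 to 269 (0 passed in each list). Of the 10 alveolar macrophage genes tested, 6 had log2 fold changes above 0 and 4 below, with a median of 0.14. Heat shock genes summed to 1839 and 2295 against 2364 to 2821. Summed CPM of 7 epithelial genes was 20802 and 28467 with vehicle against 15084 to 17222 with RTX, and of 7 endothelial genes 2283 and 2461 against 1914 to 2264 (0 of 7 passed in each list). Granulocyte sums were higher with RTX: 206 to 271 against 104 and 173 for 10 neutrophil genes, and 64.9 to 91.7 against 26.7 and 48.7 for 7 genes of eosinophils, mast cells and basophils. Of these, Ly6g and Epx were each at 0 in 2 of the 14 libraries. Heart muscle genes summed to 417 CPM in vehicle replicate 1, 116 in vehicle replicate 2 and 138 to 173 with RTX. Their part in the values of the 9 genes was not tested.

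The routes were set against each other in 1 fit of both RTX experiments, which have separate controls. The fold change was lower with intrathecal than with subcutaneous RTX for all 9 members, against 49.3% of all genes, but 0 of 9 passed, in a contrast where 0.0556% of 17972 genes did. The median difference was −0.21, against 0.00530 over all genes. It was largest for Trem2, at −0.61 ± 0.30 log2 (adjusted p 0.363; interval of 2 SE from −1.20 to −0.02), followed by Ms4a7 (−0.45 ± 0.36), Gpnmb (−0.41 ± 0.69) and Ccr2 (−0.27 ± 0.17). At an unadjusted p under 0.05 edgeR gave 0 of the 9, against 15.2% of all genes. DESeq2 and voom called 0 of the 9, where they called 312 and 10 of 17972 genes in all. Without subcutaneous vehicle replicate 1, or without intrathecal vehicle replicate 1, 6 of the 9 differences were below 0. The routes also differ in dose and duration.

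Ly6c1, the copy of Ly6c2, did differ between the routes. It was at 236 and 228 CPM with intrathecal vehicle and 309, 297 and 352 CPM with intrathecal RTX, and at 345 and 293 CPM with subcutaneous vehicle and 230.0, 229 and 224 CPM with subcutaneous RTX. Groups did not overlap in either experiment, and their order was opposite. The log2 fold changes were 0.48 ± 0.09 (adjusted p 0.0855) and −0.50 ± 0.08 (adjusted p 0.0992), and their difference was 0.97 ± 0.13 with an adjusted p of 0.0390. The difference for Ly6c2 was −0.15 ± 0.56 (adjusted p 0.929). All 7 genes of the endothelial list, Ly6c1 included, had differences above 0 (median 0.32, from 0.055 to 0.97). So did all 7 epithelial genes (median 0.20), while 49.3% of all genes were below 0. The Ly6c1 call was lost when all 14 libraries were fitted together, both without and with library state in that fit (adjusted p 0.0573 and 0.434), and without any of 7 of the 10 libraries (adjusted p 0.0663 to 0.176).

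Among themselves, the members fell into a tight and a loose part. As deviations of log2(TMM-scaled CPM + 1) from the mean of each experiment, the C1q subunits had Pearson's r of 0.955 to 0.983 with each other over the 14 libraries, and the ratio of C1qa to C1qb stayed between 0.923 and 1.14. Ms4a7 had r of 0.930 with C1qc and 0.911 with Trem2, and Spp1 had r of 0.831 with Ms4a7. Ccr2 had r of 0.514 with C1qa and −0.416 with Gpnmb, and the ratio of Ccr2 to C1qa ran from 0.481 to 1.55. Ly6c2 had r between −0.301 and 0.0725 with the other 8. Gpnmb and Trem2, both named with lipid-laden macrophages, had r of 0.476, and their ratio ran from 0.603 to 5.98. The values share libraries and depth, and these correlations are a description with no test.

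**Figure D4:**
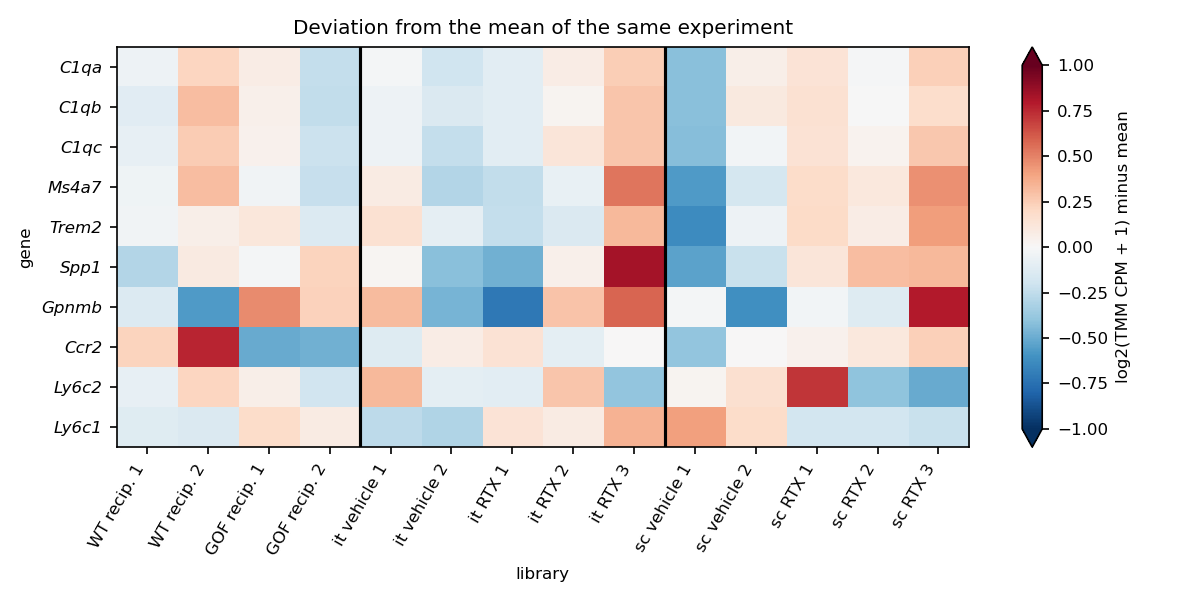
Deviation of log2(TMM-scaled CPM + 1) from the mean of the same experiment (colour, red above and blue below 0) for the 9 genes and Ly6c1 (rows) in the 14 libraries (columns), with lines between experiments. The C1q rows share their pattern, at r of 0.955 to 0.983, and Ly6c2 and Ly6c1 differ from it and from each other.

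Of 12620 other genes with a mean of at least 5 CPM, the 3 most like each member by the same r were listed. Ms4a7 and Trem2 shared Cd68, a lysosomal glycoprotein of macrophages (r of 0.928 and 0.947), and Ctsb was also close to Trem2 (0.922). Tmem267 (0.942) and Ttc7 (0.934) came first for Ms4a7, and Corin (0.909) was also listed for Trem2. Ttc7 and Ralgds were listed with both C1qc (0.937 and 0.930) and C1qa (0.906 and 0.910), and the protease gene Ctsz (0.921) with C1qc. Dhrs9 was listed with both C1qa (0.903) and C1qb (0.925), which also had Bak1 (0.930) and Cndp2 (0.919).

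For Gpnmb the list held Ppp1r1b (0.919) and the lysosomal genes Ctsd (0.889) and Pld3 (0.857). For Spp1 it held Fam83g (0.939), Map2k1 (0.913) and Snx9 (0.906). For Ccr2 it held the ribonuclease gene Rnase2a (0.959), Ciita (0.957), the activator of MHC class II genes, and Gm49087 (0.956). For Ly6c2 it held Tmem39b (0.880), Dnajc7 (0.839) and the immunoglobulin segment Ighv11-2 (0.829). All r are over 14 libraries. With deviations from group means instead, 4 of these 27 pairings stayed among the 3 closest and 25 among the 50 closest.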

How the data were processed

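RNA was measured by mRNA sequencing of 14 lung libraries (RNeasy extraction, oligo-dT enrichment, NEBNext Ultra II, per the labels' protocols). Per the submitters' processing notes the tools were FastQC 0.11.8, Trim Galore 0.6.6, STAR 2.7.5b and Salmon 1.2.1, and the build was GRCm38. Neither the annotation release nor the strand setting is given in the sources used here. The authors deposited 3 tables of estimated counts per gene, 1 for each experiment, in which 24.2% of values were not whole. Positions came from GENCODE M21, which holds 53307 of the 54347 identifiers with an equal version, all 9 members included.

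After rounding to whole numbers, the 3 tables were tested separately (R 4.3.3, edgeR 4.0.16) by the robust quasi-likelihood F test on TMM-scaled libraries, with genes kept by filterByExpr (minimum count 10, total 15). Calls were made at a Benjamini-Hochberg adjusted p under 0.05, adjusted over every gene kept. The SE is the absolute log2 fold change divided by the square root of F. The RTX effects were compared as a contrast in 1 fit. Replicates differed beyond sampling noise (chi-square per degree of freedom 9.57 to 23.1). The members and lists were chosen with earlier results of these data known. Named are all members, Ly6c1, up to 3 genes per list past the threshold or the most abundant where none passed, and the 3 genes most like each member. One result that this rule names is not reported here. Genes at 0 in a library and the fourth heat shock gene were named after their values were seen. Alternatives were DESeq2 size factors, total counts, other filters, DESeq2 1.42.0, limma voom 3.58.1, no robust prior, all 14 libraries in 1 fit, without and with library state, a replicate block, and each library left out. Tested on simulated data, the chimera fit (17043 genes) found 68 of 98 genes changed 2-fold, 98 of 99 changed 4-fold and 7 unchanged genes. The intrathecal fit (17095 genes) found 76 of 96, 98 of 98 and 7, and the subcutaneous fit (17096 genes) 73 of 95, 98 of 99 and 6. The fit of the difference between the RTX effects (17600 genes) found fewer of the 2-fold changes, 35 of 95, with 89 of 103 and 7. How far such recovery holds at the spread between the real replicates was not tested. Figures were drawn with matplotlib 3.10.9.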

Additional observations from a re-analysis of the deposited data

Results flagged for a closer look

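Ly6c1, the copy of Ly6c2, differed between the effects of intrathecal and subcutaneous RTX by 0.97 on the log2 scale by a test of the difference itself (edgeR's quasi-likelihood test, adjusted p 0.0390). It was higher with intrathecal RTX in 3 of 3 libraries than in both vehicle libraries, and lower with subcutaneous RTX in 3 of 3. All 7 genes of the endothelial list, Ly6c1 included, and all 7 epithelial genes had differences above 0 (medians 0.32 and 0.20). The call did not hold with all 14 libraries in 1 fit (adjusted p 0.0573), with library state added to that fit (0.434), with the replicate block (0.278) or without any of 7 of the 10 libraries (0.0663 to 0.176).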

How the results depend on the processing

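Genes past the threshold numbered 124 in the chimeras, 54 with intrathecal RTX, 0 with subcutaneous RTX and 10 for the difference. Without the filter on low counts they were 807, 655, 807 and 147; with DESeq2 305, 254, 761 and 312; with all 14 libraries in 1 fit 50, 7, 71 and 0. With library state added, the last 3 were 5, 184 and 6, and without the robust prior the first 2 were 79 and 34. With each library left out they ranged over 83 to 919, 19 to 40, 0 to 871 and 0 to 90. Members past the threshold in the chimeras (1) were 2 without the filter, with DESeq2 and with the replicate block, and 0 to 2 with each library left out. With subcutaneous RTX (0) they were 2 without the filter and with DESeq2, and 0 to 6 with each library left out. In the other comparisons they were 0 under every alternative run.

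No member past the threshold changed sign; signs changed only for values that had missed it. With library state in the fit, log2 fold changes of opposite sign were 0.065 for Trem2 in the chimeras; −0.11 for Ccr2, 0.13 for Trem2 and −0.026 for Lyz2 with intrathecal RTX; 0.31 for Ly6c2 and −0.091 for Apoe with subcutaneous RTX; and 0.041 for Gpnmb in the difference. With total counts alone, Ccl8 was at −0.011 with intrathecal RTX. With each library left out, ranges that crossed 0 were, in the chimeras, −0.29 to 0.026 for Ly6c2, −0.40 to 0.030 for C1qb and −0.16 to 0.098 for Trem2. With intrathecal RTX they were −0.054 to 0.16 for Ccr2, −0.40 to 0.041 for Ly6c2, −0.23 to 0.095 for Trem2, −0.40 to 0.024 for Apoe, −0.17 to 0.63 for Gpnmb, −0.093 to 0.22 for Lyz2, −0.25 to 0.31 for Ccl8, −0.034 to 0.051 for Itgb1, −0.0061 to 0.68 for Spp1 and −0.074 to 0.46 for Ms4a7. With subcutaneous RTX they were −0.58 to 0.17 for Ly6c2, −0.17 to 0.23 for Apoe and −0.13 to 0.0046 for Itgb1. For the difference they were −0.37 to 0.38 for Ly6c2, −0.64 to 0.042 for Spp1, −0.76 to 0.044 for Gpnmb, −0.37 to 0.11 for C1qa, −0.37 to 0.15 for C1qb and −0.35 to 0.060 for C1qc. The cause of these shifts was not tested.

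Same-numbered libraries did not deviate together (r from −0.258 to 0.00527). In a group of 2 libraries the deviations from the group mean mirror each other, so these r cannot decide whether the numbers pair libraries. With the replicate number as a block, 123, 50, 0 and 7 genes passed, Gpnmb passed in the chimeras (adjusted p 0.0469), and the block ended the Ly6c1 call for the difference. Values of opposite sign under the block were −0.014 for Spp1, −0.065 for Ms4a7, −0.14 for Gpnmb and −0.13 for Ccl8 with intrathecal RTX, and 0.068 for Ly6c2 and −0.094 for Apoe with subcutaneous RTX. Limits are the 2 or 3 libraries per group and the low counts of Ms4a7 and Ly6c2, from 136 and 277.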
